A study of Homo sapiens with 8 samples.

Results

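RNA from A549 cells was examined for 9 genes of cystine import and ferroptosis (SLC7A11, SLC3A2, GPX4, AIFM2, DHODH, ACSL4, LPCAT3, NCOA4 and TFRC), out of 60624 Ensembl genes counted. The genes were taken by name, as a set chosen by the lower SLC7A11 RNA level of indisulam-treated cells. The difference between indisulam-treated and untreated cells is therefore given for these 9 genes as a description without a test, and the effect of indisulam was tested in the libraries that also received SPHINX31. A549 cells are an established line from a human lung adenocarcinoma. Indisulam is a molecular glue that brings the splicing factor RBM39 to the ubiquitin ligase receptor DCAF15 for degradation, and SPHINX31 inhibits SRPK1, a kinase of SR splicing factors.

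The 4 groups were untreated cells (no drug, vehicle not given), cells treated with indisulam, cells treated with SPHINX31 and cells treated with the combination, with 2 technical replicates each. For this experiment the methods of the study state 24 h of treatment, with indisulam at 0.5 μM and SPHINX31 at 5 μM. The label of every library instead gives 2 μM indisulam and 18 h, which cannot describe the untreated and SPHINX31 libraries. The methods state that dose and time for a separate experiment on pancreatic cancer cells. Dose and time carry this uncertainty. All libraries came from 1 cell line. Since the replicates were technical, the p-values below measure only the spread between such libraries and not that between independent treatments. Libraries held 51727369 to 63186989 counts on genes. Replicates differed by more than sampling noise in every group, with a chi-square per degree of freedom of 6.59 to 10.7. The 5 epithelial markers (KRT8, KRT18, KRT19, EPCAM and CDH1) were all expressed, with a summed level of 8250 to 8290 CPM in untreated cells and 7770 to 7970 CPM with indisulam. Their sum was 7040 to 7230 CPM with SPHINX31 and 7270 to 7420 CPM with the combination, and its part in the results with SPHINX31 was not tested. Summed levels over 4 leukocyte, 3 endothelial and 4 fibroblast markers did not exceed 9.82, 2.51 and 4.91 CPM in any library.

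Ferroptosis is a form of cell death in which iron drives the peroxidation of polyunsaturated lipids in membranes. SLC7A11 and SLC3A2 form the cystine/glutamate exchanger known as system xc-, which supplies the cysteine used for glutathione. GPX4 uses glutathione to reduce lipid peroxides, and AIFM2 (FSP1) and DHODH keep ubiquinone reduced at the plasma membrane and in mitochondria. ACSL4 activates polyunsaturated fatty acids and LPCAT3 inserts them into phospholipids. TFRC takes up transferrin-bound iron, and NCOA4 delivers ferritin for degradation so that its iron is released. In lung adenocarcinoma cells, SLC7A11 is known as a target gene of the transcription factors NFE2L2 (NRF2) and ATF4.

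All 9 genes passed the filter on low counts and were fully within the 18661 genes tested. To compare levels between genes, levels in CPM (counts relative to library size, scaled with TMM factors) were divided by the length of all annotated exons in kb, a length that includes exons A549 cells may not use. Averaged over the 8 libraries, the levels ran from 93.3 CPM per kb for SLC3A2 through 53.2 for GPX4, 40.9 for SLC7A11, 35.1 for NCOA4, 19.1 for TFRC, 17.1 for ACSL4, 14.3 for AIFM2 and 8.75 for LPCAT3 down to 2.74 CPM per kb for DHODH. The ranges over libraries did not overlap between SLC3A2 and GPX4, between NCOA4 and TFRC, and between LPCAT3 and DHODH, and they overlapped between all other neighbours in this order. SLC7A11 had the widest range of the 9 genes, from 12.1 to 77.0 CPM per kb, so that its place in the order depended on the treatment.

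**Figure D1:**
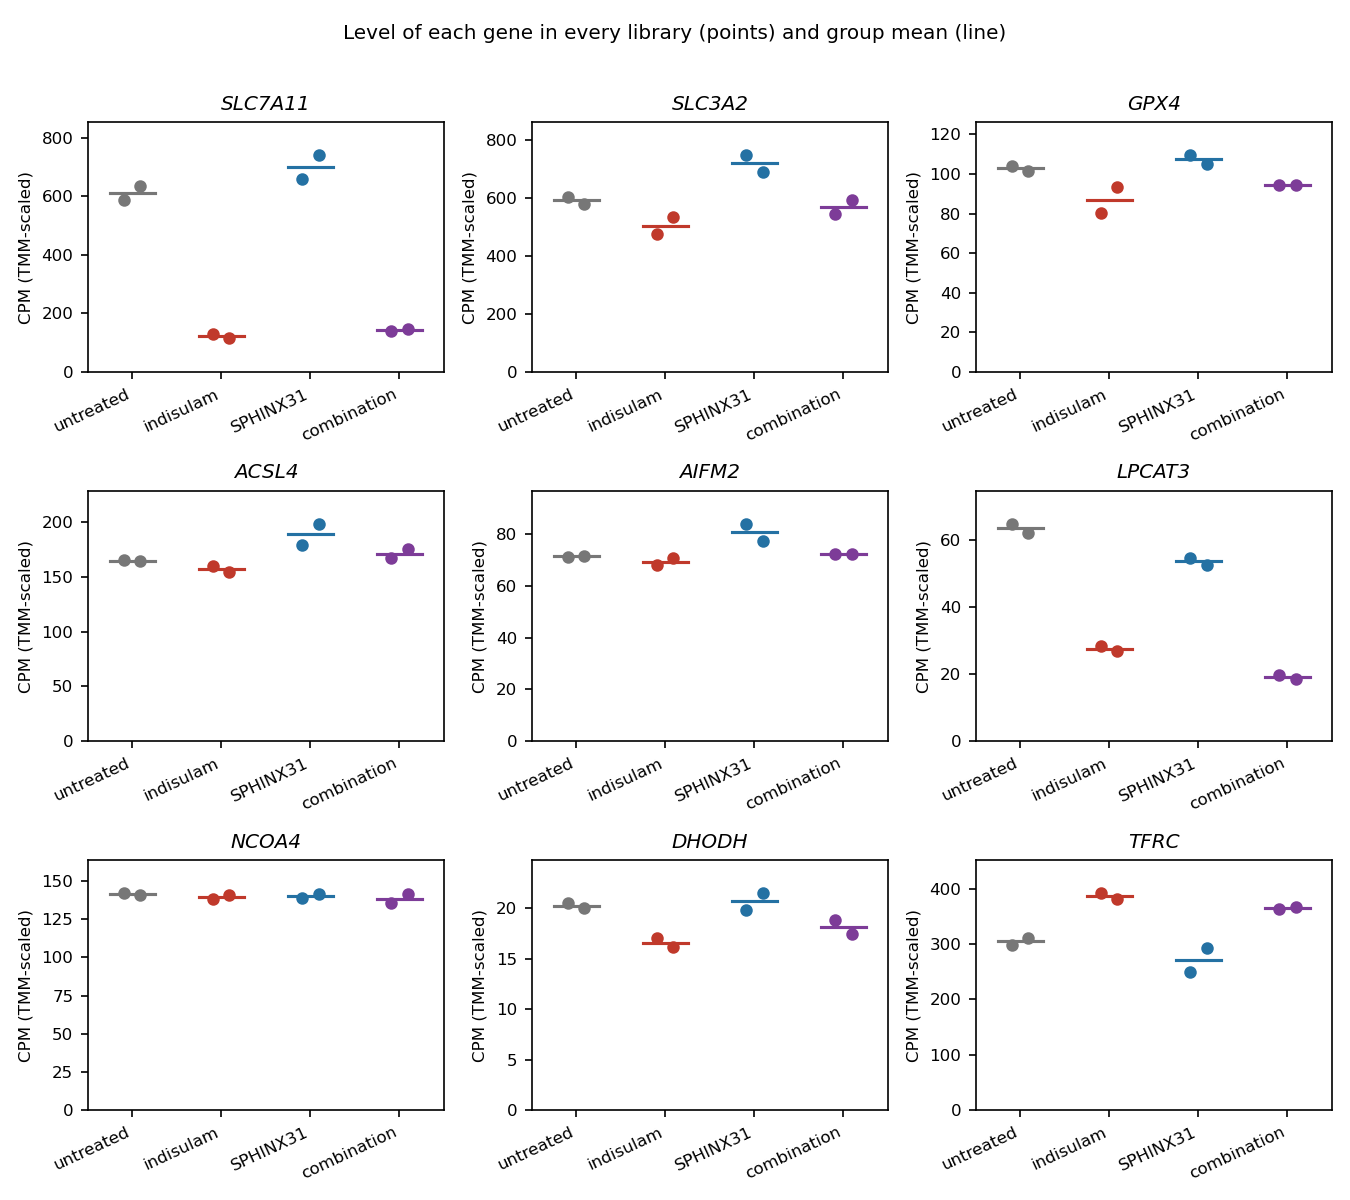
Level of each gene in CPM (TMM-scaled, linear axes starting at 0) in the 2 libraries of each of the 4 groups, with points for libraries and a line for the group mean. SLC7A11 and LPCAT3 lie far lower in the 4 libraries with indisulam than in the 4 without it, TFRC lies higher in them, and NCOA4 stays between 136 and 142 CPM in all 8 libraries.

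SLC7A11 (ENSG00000151012, GRCh38 chr4:138164097-138242349, minus strand, 12 exons in its canonical transcript) was far lower in both groups that received indisulam. Its level was 587 and 635 CPM in the untreated libraries and 129 and 116 CPM in the indisulam libraries. It was 660.0 and 742 CPM with SPHINX31 and 139 and 146 CPM with the combination. All 4 libraries with indisulam lay below all 4 libraries without it. In RNA of whole cultures, fewer cells with the transcript and less of it per cell cannot be told apart. Indisulam against untreated cells gave a log2 fold change of -2.32 with a standard error (SE) of 0.0704, or 4.98-fold lower, which is the value the gene was chosen for. In the libraries not used for that choice, the combination against SPHINX31 gave a log2 fold change of -2.30 (SE 0.0702, 95% interval -2.45 to -2.15), a level 4.93-fold lower (adjusted p = 1.99e-10 in the quasi-likelihood test of edgeR, corrected after Benjamini and Hochberg over all genes, and written below as edgeR adjusted p). The SE and adjusted p rest on a spread estimated over all 8 libraries, those of the choice included. Of the 9980 genes whose average log2 CPM reached 3, 3 had a lower log2 fold change than SLC7A11 in the combination against SPHINX31.

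No change of this difference by SPHINX31 was detected. The interaction is the log2 change with indisulam in the presence of SPHINX31 minus that in its absence. It was 0.01 for SLC7A11 (95% interval -0.19 to 0.22, edgeR adjusted p = 0.982). This contrast includes the untreated and indisulam libraries that the gene was chosen from, so that its test is not independent of the choice. The values with SPHINX31 were themselves slightly higher than those without it. For SLC7A11 the log2 fold change was 0.20 for SPHINX31 against untreated cells (edgeR adjusted p = 0.0835) and 0.21 for the combination against indisulam (edgeR adjusted p = 0.0804), and neither passed the threshold of 0.05. Both passed under scaling by total counts (adjusted p of 0.0442 and 0.0391) and without the filter on low counts (0.00402 and 0.00413). Leaving out a library gave 0.11 to 0.28 for the former, which passed without SPHINX31 replicate 1 (0.0499) or either indisulam library (0.0481 and 0.0484), and was lowest without SPHINX31 replicate 2 (0.385). It gave 0.13 to 0.29 for the latter, which passed without indisulam replicate 1 (0.0448) or either SPHINX31 library (0.0424 and 0.0426), and was lowest without indisulam replicate 2 (0.369).

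An antisense gene, SLC7A11-AS1, overlaps exons of SLC7A11 on the other strand. It held 2 to 12 counts in any library, against 5928 to 43430 counts for SLC7A11, and was too low to be tested. KCNE5 within ACSL4, the pseudogenes of NCOA4 and the small genes that overlap TFRC held at most 5 counts.

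SLC3A2 (ENSG00000168003, chr11:62856004-62888880, plus strand, 9 exons), the heavy chain that SLC7A11 shares with several other amino acid transporters, was lower with indisulam by a much smaller amount. It stood at 604 and 579 CPM in untreated cells, 477 and 533 CPM with indisulam, 749 and 691 CPM with SPHINX31, and 546 and 594 CPM with the combination. In the combination against SPHINX31 its level fell by 0.34 on the log2 scale (SE 0.0634, 1.26-fold lower, edgeR adjusted p = 6.211e-04). SPHINX31 alone raised it over untreated cells, with a log2 fold change of 0.28 (SE 0.0633, edgeR adjusted p = 0.0141), a call lost without untreated replicate 1 (0.0677), untreated replicate 2 (0.127) or SPHINX31 replicate 1 (0.120). Indisulam against untreated cells gave -0.23 on the log2 scale. The ratio of SLC7A11 to SLC3A2 in CPM per kb was 0.644 and 0.727 in untreated cells and 0.584 and 0.712 with SPHINX31. It was 0.180 and 0.145 with indisulam and 0.169 and 0.163 with the combination, so that the RNAs of both exchanger chains were far less balanced in the 4 libraries with indisulam.

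The promoters of these genes were searched for the sequence elements of the transcription factors on the list of the pathway's regulators. RefSeq promoter windows (the 250 bases before each start, GRCh38.p14) were matched for 8 of the 9 genes, the exception being SLC7A11, and gave 13 windows. The antioxidant response element core TGACNNNGC, the kind of sequence that NFE2L2 binds, was searched on both strands. It was found in 2 of the 13 windows, 1 of SLC3A2 and 1 of AIFM2, and in 10.9% of 35116 promoter windows of all genes. The ATF4-type element TGATGNAA was found in 0 of the 13 windows and in 3.14% of all windows. The 2 matches are shown with 10 bases on each side, 5′ to 3′ on the strand of the gene, with the element in capitals. On the AIFM2 line the element lies on the opposite strand, so that its reverse complement is printed. The SLC3A2 match lies 37 to 29 bases before the RefSeq start of its window (printed stretch chr11:62881652-62881680, plus strand). The AIFM2 match lies 22 to 14 bases before that of its own (printed stretch chr10:70132829-70132857, minus strand). Both lie inside the GENCODE positions of their genes, so that these RefSeq starts are downstream of the first annotated base. The other SLC3A2 windows held no match.
SLC3A2: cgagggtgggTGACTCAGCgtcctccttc
AIFM2: cagcacgagtGCTGAGTCAcgccccgccc

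The enzymes of lipid peroxide defence differed little between the groups. GPX4 (ENSG00000167468, chr19:1103982-1106791, plus strand, 7 exons), the selenoprotein that reduces phospholipid hydroperoxides, was at 104 and 101 CPM in untreated cells, 80.3 and 93.3 CPM with indisulam, 110 and 105 CPM with SPHINX31, and 94.6 and 94.3 CPM with the combination. The groups with and without indisulam did not overlap, yet the distance between the 2 indisulam libraries was about as large as that between the group means of the combination and SPHINX31. GPX4 fell by 0.19 on the log2 scale in the combination against SPHINX31 (SE 0.0642, edgeR adjusted p = 0.0268), a call that was lost without SPHINX31 replicate 1 (0.151), combination replicate 1 (0.117) or combination replicate 2 (0.0995).

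AIFM2 (ENSG00000042286, chr10:70098223-70132934, minus strand, 9 exons), the ubiquinone reductase that the promoter match above belongs to, had 71.2 and 71.8 CPM in untreated cells and 68.1 and 70.8 CPM with indisulam. It had 84.2 and 77.5 CPM with SPHINX31 and 72.3 and 72.4 CPM with the combination. SPHINX31 libraries thus held the highest values, and the other 3 groups lay close together. AIFM2 fell by 0.16 on the log2 scale in the combination against SPHINX31 (SE 0.0543, edgeR adjusted p = 0.0253). Leaving out SPHINX31 replicate 1, combination replicate 1 or combination replicate 2 gave an adjusted p of 0.231, 0.111 or 0.0812, and a fit of only these groups gave 0.0689. The log2 fold change of SPHINX31 against untreated cells was 0.18 (edgeR adjusted p = 0.0598), which passed under scaling by total counts (0.0283) or without SPHINX31 replicate 2 (0.0264). MACROH2A2, a histone gene that shares exon positions with AIFM2, fell by 0.33 on the log2 scale in the combination against SPHINX31 (edgeR adjusted p = 0.0020).

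DHODH (ENSG00000102967, chr16:72008588-72027664, plus strand, 9 exons), the mitochondrial enzyme of pyrimidine synthesis, was the lowest of the 9 genes. It was at 20.5 and 20.04 CPM in untreated cells, 17.1 and 16.1 CPM with indisulam, 19.8 and 21.6 CPM with SPHINX31, and 18.9 and 17.4 CPM with the combination. Each library with indisulam was below each library without it. The combination against SPHINX31 gave a log2 fold change of -0.19 (SE 0.0728, edgeR adjusted p = 0.0437), and this call was lost in 6 other ways of fitting the data (adjusted p from 0.0501 to 0.105), and without SPHINX31 replicate 2 (0.287), combination replicate 2 (0.233), untreated replicate 1 (0.0648) or untreated replicate 2 (0.0645).

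Of the genes that build polyunsaturated phospholipids, LPCAT3 moved with both treatments and ACSL4 moved little. LPCAT3 (ENSG00000111684, chr12:6976185-7018477, minus strand, 13 exons) was at 65.0 and 62.2 CPM in untreated cells, 28.3 and 26.9 CPM with indisulam, 54.7 and 52.8 CPM with SPHINX31, and 19.8 and 18.7 CPM with the combination. The 4 groups were fully separated, with the combination lowest. LPCAT3 fell by 1.48 on the log2 scale in the combination against SPHINX31 (SE 0.0610, 2.80-fold lower, edgeR adjusted p = 1.43e-09). Indisulam against untreated cells gave -1.20 on the log2 scale, or 2.30-fold lower.

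SPHINX31 lowered LPCAT3 in both settings. Against untreated cells its level fell by 0.24 on the log2 scale (edgeR adjusted p = 0.0177), and the combination against indisulam gave a log2 fold change of -0.52 (SE 0.0624, 1.44-fold lower, edgeR adjusted p = 3.39e-04). The former call was lost without untreated replicate 1 (0.183), untreated replicate 2 (0.0731) or SPHINX31 replicate 2 (0.0694), while the latter held without any 1 library. The interaction was -0.28 on the log2 scale (95% interval -0.46 to -0.10, unadjusted p = 0.00558), which did not pass after adjustment in edgeR's test (adjusted p = 0.427).

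EMG1, a gene of ribosome assembly, shares exon positions with LPCAT3 on the other strand. The strand setting of the authors' counting is not given in the sources used here, so that reads of these genes may not be told apart. EMG1 was at 61.5 and 64.5 CPM in untreated cells, 32.7 and 30.8 CPM with indisulam, 64.6 and 63.6 CPM with SPHINX31, and 27.0 and 26.1 CPM with the combination. Thus both genes had their lowest values with the combination and moved in parallel with indisulam. EMG1 fell by 1.27 on the log2 scale in the combination against SPHINX31 (edgeR adjusted p = 2.6e-09) and fell by 0.26 in the combination against indisulam (edgeR adjusted p = 0.0179). With SPHINX31 against untreated cells, its log2 fold change was 0.03 (edgeR adjusted p = 0.830), where that of LPCAT3 was -0.24. The part of EMG1 reads in the LPCAT3 values was not tested. C1S, another overlapping gene with no shared exon position, moved the other way, with a log2 fold change of 0.50 in the combination against SPHINX31 (edgeR adjusted p = 5.04e-06).

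ACSL4 (ENSG00000068366, chrX:109624244-109733403, minus strand, 16 exons), the ligase that activates arachidonic and adrenic acid, was at 165 and 165 CPM in untreated cells, 160.2 and 154 CPM with indisulam, 179 and 199 CPM with SPHINX31, and 167 and 175 CPM with the combination. Its highest values were in the SPHINX31 libraries. SPHINX31 raised it by a log2 fold change of 0.20 (SE 0.0560, edgeR adjusted p = 0.0464), a call at the edge of the threshold that was lost in 3 other fits (adjusted p from 0.0510 to 0.0626) and without any of the untreated or combination libraries or SPHINX31 replicate 2 (adjusted p from 0.0594 to 0.227). The combination against SPHINX31 gave -0.14 (SE 0.0560, edgeR adjusted p = 0.05004), just outside it, and passed without the filter on low counts (0.0488) or without SPHINX31 replicate 1 (0.0110). The ratio of ACSL4 to LPCAT3 in CPM per kb was 1.2 and 1.25 in untreated cells and 1.54 and 1.77 with SPHINX31. It was 2.66 and 2.70 with indisulam and 3.99 and 4.42 with the combination. LPCAT3 was below its untreated level in every treated group. With SPHINX31 alone ACSL4 was also above its own, so that both genes entered the ratio there.

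Of the genes of iron supply, TFRC was higher with indisulam and NCOA4 hardly differed. TFRC (ENSG00000072274, chr3:196012511-196082153, minus strand, 19 exons), the transferrin receptor, was at 299 and 312 CPM in untreated cells, 393 and 381 CPM with indisulam, 249 and 293 CPM with SPHINX31, and 364 and 368 CPM with the combination. All libraries with indisulam exceeded all libraries without it, and the 2 SPHINX31 libraries stood farther apart than those of any other group. TFRC rose in the combination against SPHINX31, with a log2 fold change of 0.43 (SE 0.0647, 1.35-fold higher, edgeR adjusted p = 1.05e-04). The value for indisulam against untreated cells was 0.34 on the log2 scale. SPHINX31 gave -0.17 against untreated cells (edgeR adjusted p = 0.128) and -0.08 in the combination against indisulam (edgeR adjusted p = 0.511). The former value was -0.06 without SPHINX31 replicate 1 (0.599) and passed at -0.29 without SPHINX31 replicate 2 (0.00745), and it also passed without the filter on low counts (0.0447).

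NCOA4 (ENSG00000266412, chr10:46005088-46030623, minus strand, 10 exons), the ferritin receptor of autophagy, was the steadiest of the 9 genes. It was at 142 and 141 CPM in untreated cells, 138 and 141 CPM with indisulam, 139 and 141 CPM with SPHINX31, and 136 and 141 CPM with the combination. The group ranges overlapped in all 3 comparisons tested. Its log2 fold change was -0.02 in the combination against SPHINX31 (95% interval -0.12 to 0.09, edgeR adjusted p = 0.793), -0.02 in SPHINX31 against untreated cells (edgeR adjusted p = 0.868) and -0.01 in the combination against indisulam (edgeR adjusted p = 0.915). The sign of these 3 values turned under scaling by total counts.

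**Figure D2:**
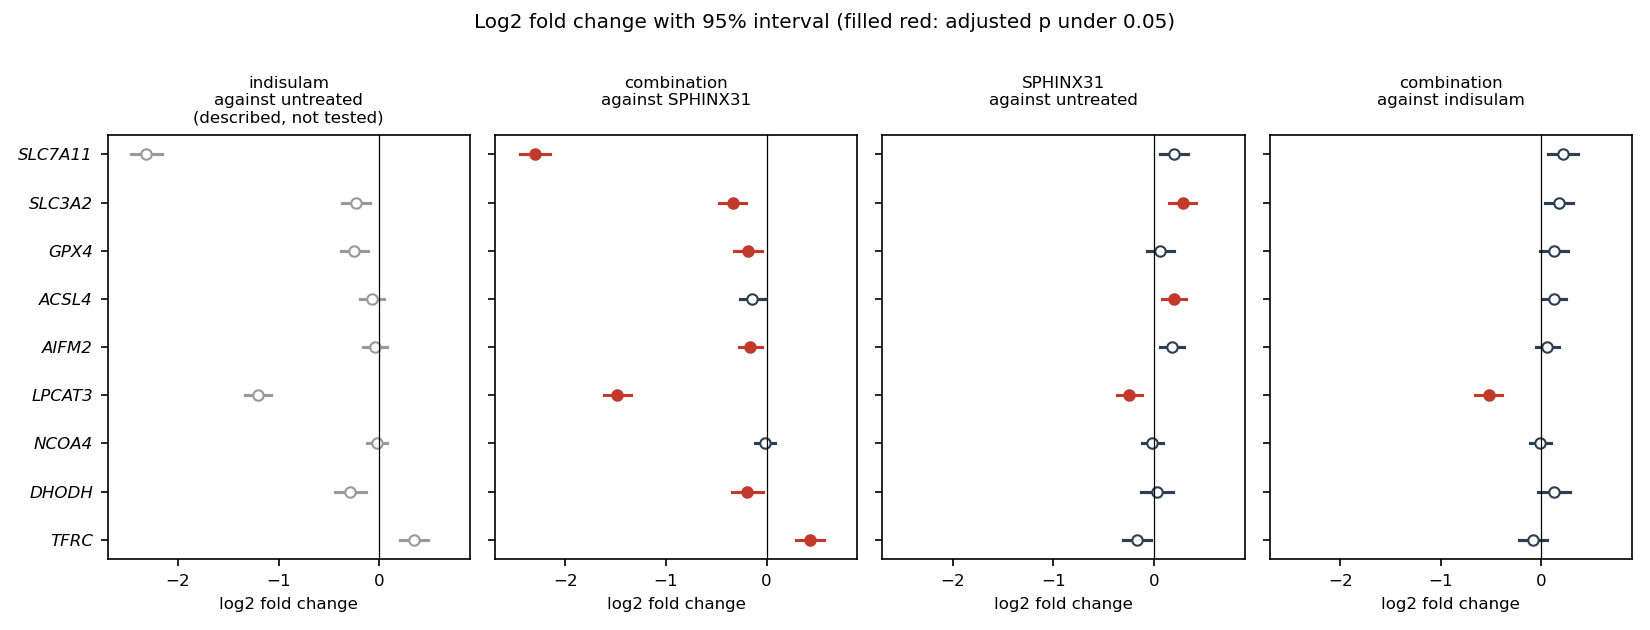
Log2 fold change with its 95% interval for the 9 genes in 4 comparisons, on a shared axis. Filled red points had an edgeR adjusted p under 0.05, open points did not, and the grey values of indisulam against untreated cells are described without a test. SLC7A11 and LPCAT3 stand apart on the left with indisulam, at -2.30 and -1.48 in the combination against SPHINX31, and only LPCAT3 is filled in the combination against indisulam.

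Counted together, 7 of the 9 genes passed the test in the combination against SPHINX31, TFRC higher and SLC7A11, SLC3A2, GPX4, AIFM2, LPCAT3 and DHODH lower, where 49.9% of all 18661 genes passed it, 23.4% higher and 26.5% lower. The median log2 fold change of the 9 genes was -0.19, against 0.00 for all genes tested, and the median absolute value was 0.19 against 0.30. The median size of change was thus smaller for the 9 genes than for all genes tested. The latter include genes of low level, and genes of a level like that of the 9 were not compared. SLC7A11 and LPCAT3 made up the large values of the set. In a fit of only the libraries of the groups compared, 1 gene passed higher and 4 lower. Without combination replicate 2, 4 of the 9 genes passed. For indisulam against untreated cells all 9 genes had groups that did not overlap, 1 higher and 8 lower, a description beside the 73.2% of all genes with such groups, 35.9% higher and 37.3% lower. Some of these gaps were very narrow. The lowest untreated and highest indisulam values were 141.1 and 141.0 CPM for NCOA4, and 71.18 and 70.82 CPM for AIFM2.

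With SPHINX31 against untreated cells 3 of the 9 genes passed the test, SLC3A2 and ACSL4 higher and LPCAT3 lower, where 8.61% of all genes passed, 4.94% higher and 3.67% lower. This count was 0 without either untreated library and 5 under scaling by total counts (4 higher and 1 lower) or without the filter on low counts (3 higher and 2 lower), and 2 with RLE size factors (1 higher and 1 lower). In the combination against indisulam LPCAT3 alone passed, as the 1 of the 9 genes, lower, where 7.5% of all genes passed, 3.17% higher and 4.32% lower, and the count was 2 without indisulam replicate 1 or either SPHINX31 library, and 3 (2 higher and 1 lower) under scaling by total counts or without the filter. For the interaction, which includes the libraries that SLC7A11 was chosen from, 0 of the 9 genes passed edgeR's test. The same held for 0 of all 18661 genes (0.0%). At an unadjusted p under 0.05 there was 1 of the 9 genes (LPCAT3) and 8.49% of all genes, and DESeq2 also called 0 of the 9.

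**Figure D3:**
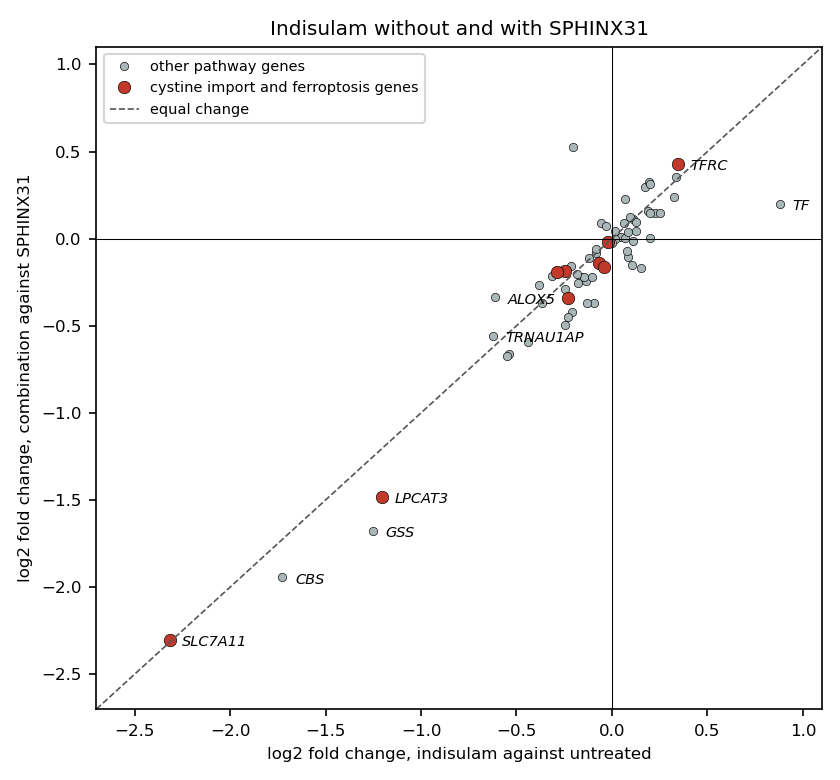
Log2 fold change of indisulam against untreated cells (horizontal) and of the combination against SPHINX31 (vertical) for the 9 genes (red) and 57 other genes of the pathway (grey), with a dashed line at equal change. The 2 comparisons share no library, and SLC7A11 lies at -2.32 and -2.30, on the line, while LPCAT3 lies at -1.20 and -1.48, under it.

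The comparisons with indisulam in the absence and the presence of SPHINX31 share no library, and their log2 fold changes had the same sign for 9 of the 9 genes, for 48 of the 57 tested genes of the wider pathway and for 84.4% of all genes tested. The former comparison is the one the set was chosen by. NCOA4 was near 0 in both, at -0.02 and -0.02. Its value in the combination against SPHINX31 turned to 0.0024 under scaling by total counts. The wider pathway was a list of 62 genes in 7 roles. SLC7A9, SLC7A10, ALOX12, ALOX15 and ALOX15B were too low to be tested. In the combination against SPHINX31 31 of the 57 genes passed the test (54.4%, 9 higher and 22 lower), close to the 49.9% of all genes. In indisulam against untreated cells 26 passed (45.6%, 9 higher and 17 lower), where 43.7% of all genes did.

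Glutathione synthesis and recycling held the largest changes, with 9 of 10 genes passing in the combination against SPHINX31, 6 lower and 3 higher. Of all genes 49.9% passed there, 26.5% lower and 23.4% higher. CBS, the first enzyme of the path from homocysteine to cysteine, was at 19.6 and 18.8 CPM in untreated cells, 5.67 and 5.95 CPM with indisulam, 22.4 and 19.7 CPM with SPHINX31, and 4.72 and 6.22 CPM with the combination. GSS, which makes glutathione from γ-glutamylcysteine, was at 63.8 and 59.9 CPM, 26.1 and 25.8 CPM, 61.8 and 61.4 CPM, and 20.5 and 18.1 CPM in the same order of groups. Both were therefore low in the same 4 libraries as SLC7A11. In the combination against SPHINX31 CBS had a log2 fold change of -1.94 (SE 0.110, edgeR adjusted p = 1.73e-08) and GSS one of -1.68 (SE 0.0664, edgeR adjusted p = 1.17e-09). GCLC and GCLM, the subunits of the rate-limiting glutamate-cysteine ligase, rose by log2 fold changes of 0.24 (edgeR adjusted p = 0.0013) and 0.16 (edgeR adjusted p = 0.0415). SLC1A5, CTH and CHAC1 fell, at -0.37, -0.37 and -0.26, and GSR, which recycles oxidized glutathione, rose by 0.15.

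Among genes of polyunsaturated and monounsaturated lipids 8 of 11 tested genes passed, 7 lower and 1 higher, where 49.9% of all genes passed, 26.5% lower. AGPS, an enzyme of ether lipid synthesis, fell by 0.67 on the log2 scale (edgeR adjusted p = 2.09e-06) and SCD, the desaturase that makes monounsaturated fatty acids, fell by 0.45 (edgeR adjusted p = 3.01e-06). PEBP1 rose by 0.33 (edgeR adjusted p = 8.02e-05). For selenoprotein synthesis, on which GPX4 depends, 4 of 7 genes passed, all lower, a share passing near that of all genes. Among them were SEPSECS at -0.59 (edgeR adjusted p = 3.13e-05) and TRNAU1AP at -0.56 (edgeR adjusted p = 2.00e-04). Peroxide and quinone defence had 3 of 7 genes passing, all lower, also near the share of all genes. These were led by COQ2 of ubiquinone synthesis at -0.49 (edgeR adjusted p = 6.51e-05) and VKORC1L1 at -0.26 (edgeR adjusted p = 7.35e-04).

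Of the iron genes 5 of 10 passed, 4 higher and 1 lower, beside the 49.9% of all genes, and FTH1, FTL, IREB2, HMOX1 and TF did not pass. The iron exporter SLC40A1 rose by a log2 fold change of 0.35 (edgeR adjusted p = 0.0011) and the iron chaperone PCBP1 by 0.31 (edgeR adjusted p = 8.95e-05), and the importer SLC11A2 fell by 0.29 (edgeR adjusted p = 7.29e-04). Of the transporter partners, which are light chains related to SLC7A11 and the heavy chain SLC3A1, 2 of 5 passed, SLC7A6 at 0.30 (edgeR adjusted p = 0.0109) and SLC7A5 at -0.24 (edgeR adjusted p = 0.0041). Of the 7 regulators of SLC7A11 transcription 0 passed in edgeR's test, with 1 at an unadjusted p under 0.05 and 0 called by DESeq2. ATF4, the most highly expressed of them, was between 459 and 539 CPM in the 8 libraries, with a log2 fold change of -0.06 (edgeR adjusted p = 0.356), and NFE2L2 gave 0.00 (edgeR adjusted p = 0.973). In indisulam against untreated cells 1 of the 7 regulators passed, where 43.7% of all genes did. This was NFE2L2, higher by a log2 fold change of 0.20 (edgeR adjusted p = 0.0077).

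**Figure D4:**
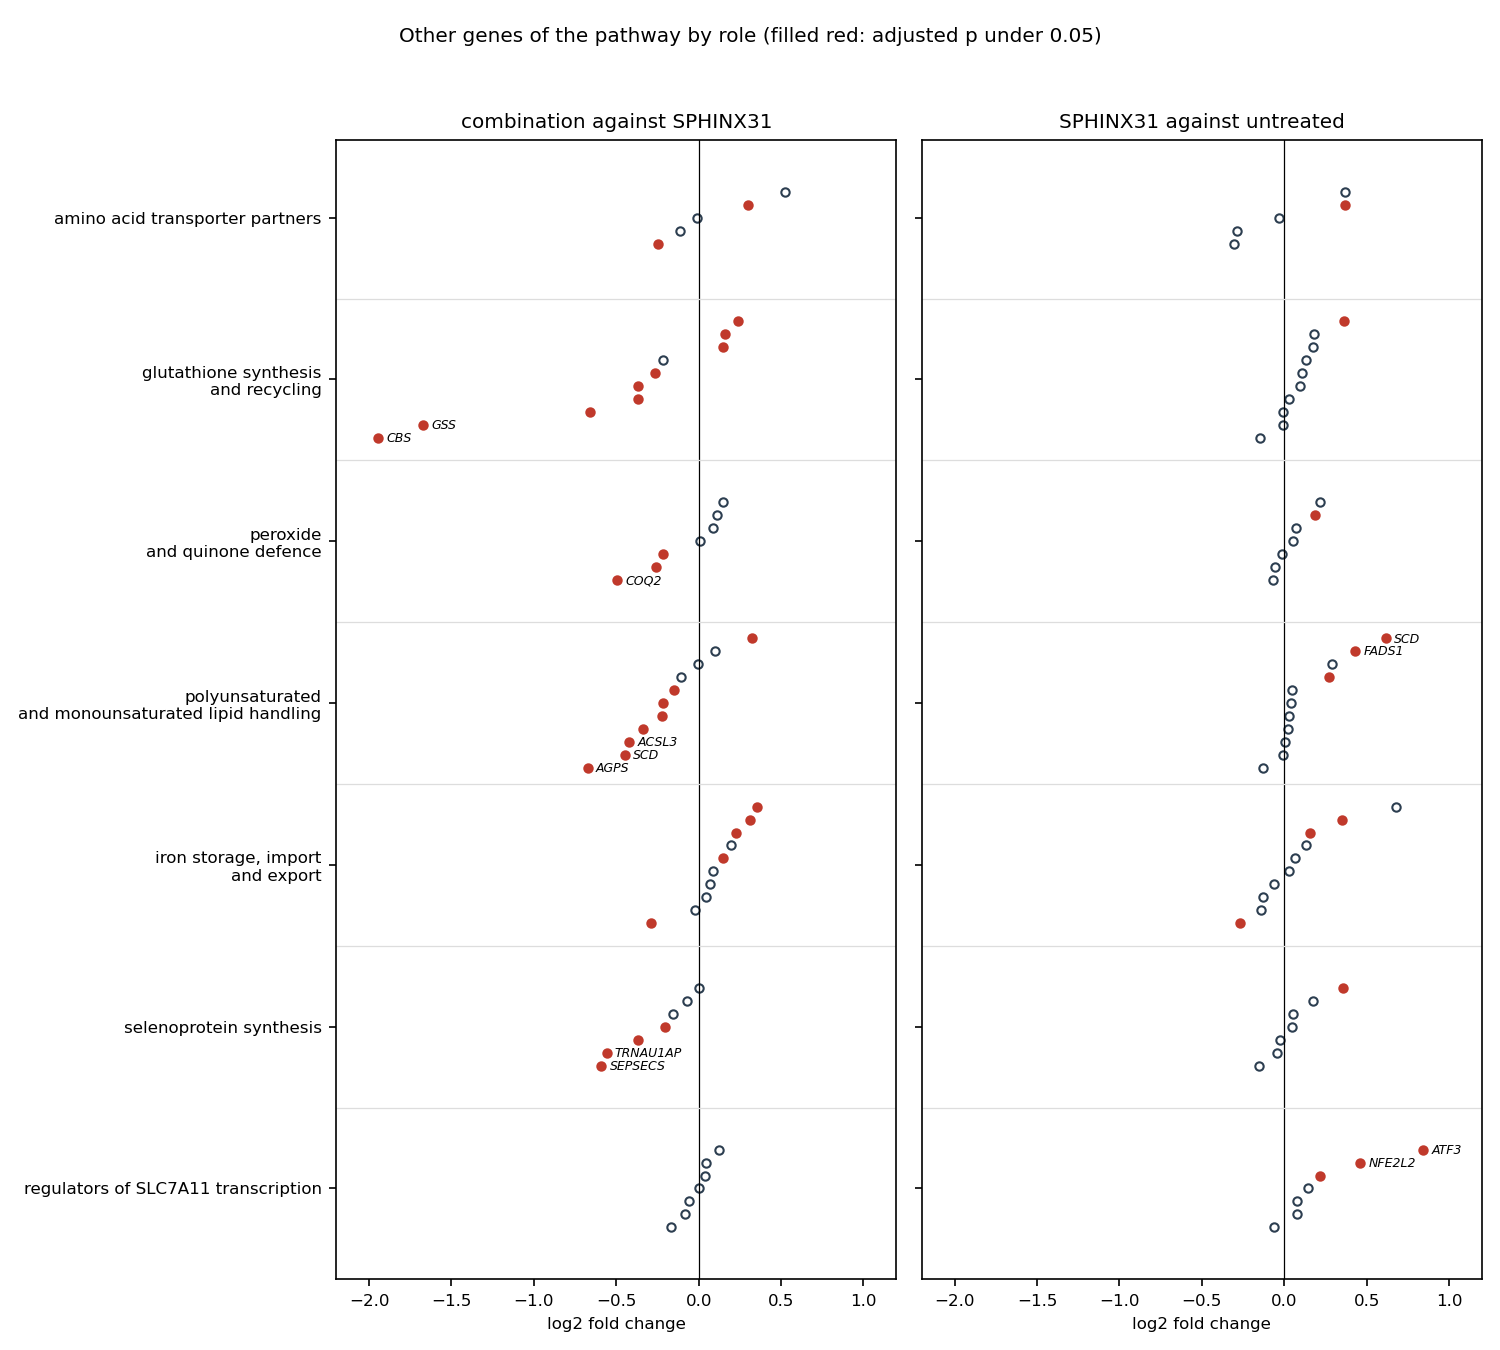
Log2 fold change of the 57 tested genes of the pathway by role in the combination against SPHINX31 (left) and in SPHINX31 against untreated cells (right). Filled red points had an edgeR adjusted p under 0.05, and gene names mark some of the genes with the larger changes. CBS and GSS lie farthest left on the left panel, and the 3 filled regulators on the right panel lie above 0.

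SPHINX31 against untreated cells moved 13 of the 57 genes past the test (22.8%, 12 higher and 1 lower), where 8.61% of all genes passed it. All 3 regulators that passed were higher. ATF3, a stress-induced factor, was at 20.3 and 19.3 CPM in untreated cells and 38.5 and 32.7 CPM with SPHINX31, and NFE2L2 at 129 and 132 CPM and 177 and 182 CPM. Their log2 fold changes were 0.84 (SE 0.0913, edgeR adjusted p = 1.16e-04) and 0.46 (SE 0.0520, edgeR adjusted p = 1.71e-04), and BACH1, a repressor of NFE2L2 target genes, rose by 0.22 (edgeR adjusted p = 0.0200).

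Other genes passed with SPHINX31 as well. GCLM rose by a log2 fold change of 0.36 (edgeR adjusted p = 0.0026), HMOX1 by 0.35 (edgeR adjusted p = 0.0120), TXNRD1 by 0.19 (edgeR adjusted p = 0.0332) and FTH1 by 0.16 (edgeR adjusted p = 0.0446), the last with many pseudogene copies that can take its reads. The desaturases SCD, FADS1 and FADS2 rose by 0.62, 0.43 and 0.27, SLC7A5 by 0.37 and SEPHS2 by 0.35. SLC40A1 was the 1 gene that fell, by 0.27 (edgeR adjusted p = 0.0334). This count was 7 without untreated replicate 2.

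In the combination against indisulam 13 of the 57 genes passed (22.8%, 9 higher and 4 lower), where 7.5% of all genes did. SCD rose by a log2 fold change of 0.40 (edgeR adjusted p = 2.53e-04), ATF3 by 0.52 (edgeR adjusted p = 0.0044), GCLM by 0.33 (edgeR adjusted p = 0.0050), HMOX1 by 0.37 (edgeR adjusted p = 0.0092) and NFE2L2 by 0.27 (edgeR adjusted p = 0.0075). ALOX5, SLC7A5, FTH1 and FADS1 rose by 0.57, 0.26, 0.19 and 0.17. GSS fell by 0.43 (edgeR adjusted p = 0.0023), as LPCAT3 did, and COQ2, SLC40A1 and ACSL3 fell as well, at -0.31, -0.25 and -0.22. Under scaling by total counts the split was 14 higher and 3 lower. The count was 6, 6 and 5 without indisulam replicate 1, combination replicate 1 and combination replicate 2. The interaction passed edgeR's test for 0 of the 57 genes, with 11 at an unadjusted p under 0.05 and 1 called by DESeq2.

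The genes most like SLC7A11 over the 8 libraries were sought by the Euclidean distance of log2 CPM centred on each gene's mean, among the 9979 other genes above the same level. The nearest was R3HDM2 at a distance of 0.230, with a mean of 47.3 CPM in untreated cells, 8.75 with indisulam, 54.4 with SPHINX31 and 10.4 with the combination. DMAC2L followed at 0.437, then MOCOS at 0.578, ALDH1L2 at 0.578 and DHFR2 at 0.579. ALDH1L2, the mitochondrial formyltetrahydrofolate dehydrogenase, went from a mean of 79.1 CPM in untreated cells to 21.7 with indisulam and from 87.5 with SPHINX31 to 21.8 with the combination. These genes were ranked by the same values, so that their likeness is a description of these 8 libraries.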

How the data were processed

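Stranded libraries of polyadenylated RNA were sequenced from both ends for 8 samples of A549 cells. The submitters' processing notes name HISAT2 2.2.1, HTSeq and GRCh38. The authors deposited raw counts of reads per Ensembl gene, not normalized. The annotation and strand setting of the counting are not given in the sources used here. Reads on genes made up 83.0% to 86.0% of each library, and the rest, in rows that name no gene (no feature, ambiguous or not unique), was left out. Gene names and positions came from GENCODE 44, which held 60370 of the 60624 genes.

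Counts were filtered with filterByExpr, scaled with TMM and tested in R 4.3.3 with edgeR 4.0.16 (quasi-likelihood test on all 8 libraries, Benjamini-Hochberg adjustment over 18661 genes, threshold 0.05), after the procedure had been tested on simulated data. The standard errors cover counting error and the spread between technical replicates, with 4 residual degrees of freedom. The alternatives were RLE size factors, total-count scaling, other filters, only the groups compared, a replicate block, DESeq2 1.42.0 and leaving out each library.

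The 9 genes, the gene lists and the tests were chosen with earlier results of these data known. The genes named were the 9, the overlapping genes of LPCAT3, AIFM2 and SLC7A11, per role up to 2 genes in each direction with the largest change in the combination against SPHINX31, genes passing with SPHINX31, the most highly expressed regulator, and the 5 genes most like SLC7A11. Further genes of glutathione synthesis and of iron were named after their values were seen. 1 gene of the pathway list is counted but not reported here by name.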

Additional observations from a re-analysis of the deposited data

How the results depend on the processing

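The lower SLC7A11 level in the combination against SPHINX31 kept its direction and its call in all alternatives, with log2 fold changes from -2.37 to -2.203. Values were taken as unchanged if direction and call stayed the same. For indisulam against untreated cells, which was not tested, they had to stay within the SE of the main value. Of the values for the 9 genes under settings other than leaving out a library, 275 were unchanged and 10 lost the call. A further 9 gained it and 5 changed sign, all 5 in NCOA4. These were 0.0172 for SPHINX31 against untreated cells, 0.0024 for the combination against SPHINX31 and 0.0330 for the combination against indisulam under scaling by total counts, and for the interaction -0.0013 without the filter and -0.0037 with DESeq2. The number of the 9 genes called was 5 for SPHINX31 against untreated cells and 3 for the combination against indisulam, both under scaling by total counts and without the filter. The cause was not tested.

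Leaving out each library in turn gave 0 to 4 of the 9 genes called for SPHINX31 against untreated cells, 4 to 7 for the combination against SPHINX31 and 1 to 2 for the combination against indisulam. Of the pathway genes it gave 7 to 13 for SPHINX31 against untreated cells and 5 to 16 for the combination against indisulam. Values near 0 changed sign in it. The interaction ran from -0.0660 to 0.109 for SLC7A11, from -0.0451 to 0.164 for GPX4, from -0.137 to 0.0139 for ACSL4, from -0.0252 to 0.0428 for NCOA4 and from -0.0165 to 0.217 for TFRC. NCOA4 ran from -0.0467 to 0.0244 in the combination against SPHINX31 and from -0.0423 to 0.0235 in the combination against indisulam, and DHODH from -0.0346 to 0.0872 in SPHINX31 against untreated cells. A group left with 1 library was assumed to vary like the others.

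The replicate numbers did not pair the libraries in the same way in all groups. Over 9980 genes the deviations of same-numbered libraries correlated at 0.452 between untreated cells and SPHINX31. Between indisulam and these groups the values were -0.566 (untreated) and -0.492 (SPHINX31). For the combination they were 0.167, 0.092 and 0.012 with untreated cells, indisulam and SPHINX31. The main fit had no term for this, and its cause was not tested. With the replicate block, SLC7A11 was at -2.30 in the combination against SPHINX31, and 2, 6 and 1 of the 9 genes and 11, 31 and 11 of the pathway genes were called for SPHINX31 against untreated cells, the combination against SPHINX31 and the combination against indisulam. For indisulam against untreated cells 26 pathway genes were called with the block. Within these 4 libraries alone, a block with crossed numbers, added after seeing the data, called 42 and the uncrossed block 23. Depth limited the 9 genes little, since DHODH, the lowest, still held 822 to 1267 counts per library.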
